A study of Mus musculus with 2 samples.

Results

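The genes described are 35 genes of DNA replication and S phase, taken by symbol from the 31055 genes that both count matrices list. All 35 were found in both. They fall into 9 genes of the replicative helicase, 4 of origin licensing and firing, 8 of the polymerases, sliding clamp and lagging strand, 6 of nucleotide supply, 5 of chromatin, and 3 regulators of entry into S phase. The samples are 2 untreated subcutaneous squamous cell carcinomas of FVB mice, called replicate 1 and replicate 3 after their labels and forming 1 group, the mosaic tumour. Each was grown by injecting 2 carcinoma lines together, CIT6, marked by YFP, and CIT9, marked by RFP. Tissue sections carried light-printed oligonucleotide codes (ZipSeq), the tissue was digested with collagenase I and collagenase IV, leukocytes were sorted by their surface protein CD45, and RNA was read with the 10x Genomics 3' v3 chemistry, so the carcinoma cells themselves were largely not measured. Whether the 2 samples come from separate animals is not stated in the labels. The tumour was fitted as a block. The spread behind each p-value comes only from these 2 samples, and it is shared over all groups of cells in a fit and partly pooled over genes. A small p-value therefore does not measure how the difference of 1 gene varies between tumours.

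The matrices held 89040909 gene UMIs (unique molecular identifiers, 1 per captured transcript) in replicate 1 and 170328781 in replicate 3. After filters 4632 and 6371 cells remained, with medians of 16461.5 and 20753 UMIs. Of the barcodes kept, 9 occurred in both libraries. Classes were gated here on marker genes, and the names are not the authors' annotation. Macrophage-like cells numbered 2931 and 2982, and a second group of 215 and 1528 cells carried the macrophage receptor Csf1r but few macrophage markers and is called marker-low phagocytes. In it C1qa stood at 693 and 659 CPM (the UMIs of a gene scaled to a common total for the class), against 6698 and 6916 CPM in macrophage-like cells, while Csf1r stood at 562 and 455 CPM against 805 and 719 CPM. All 6 T-cell markers, all 5 NK markers and all 6 monocyte markers were detected in at least 10% of the cells of the class named for them in both tumours. The epithelial keratin and Epcam list summed to 2.74 and 2.98 CPM in macrophage-like cells.

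Before a cell divides it must copy each stretch of its genome once. In G1, the origin recognition complex with Cdc6 and Cdt1 loads the MCM ring onto DNA. At the start of S phase cyclin E with its kinase, and the E2F transcription factors released from the retinoblastoma proteins, drive both origin firing and the transcription of most of the genes described here. Cdc45 and the GINS proteins turn the MCM ring into an active helicase, and primase, the polymerases, the PCNA clamp, Fen1 and Lig1 copy the strands. Ribonucleotide reductase, thymidylate synthase and thymidine kinase supply the nucleotides. Most of these transcripts are low in resting cells. In UMIs summed over a class, more cycling cells and more transcript per cycling cell cannot be told apart. In tumours, macrophages are replenished by monocytes from blood and can also divide in place.

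To count cells with S-phase transcripts, each cell was thinned to 3000 UMIs and called S-phase-positive when at least 6 of them came from the 35 genes. The 507 cells of replicate 1 and 182 of replicate 3 with fewer than 3000 UMIs were left out. Marker-low phagocytes held the highest share of the larger classes in both tumours. In replicate 1, 12.9% of them were positive (26 of 201, exact 95% interval 8.63 to 18.4%), and in replicate 3 26.1% (395 of 1516, 23.9 to 28.3%). Macrophage-like cells were positive in 3.63% (104 of 2866, 2.97 to 4.38%) and 11.5% (340 of 2947, 10.4 to 12.7%). The intervals of these classes did not overlap within either tumour, and over the 2 tumours the shares averaged 19.5 ± 9.28% in marker-low phagocytes and 7.58 ± 5.59% in macrophage-like cells (SD, n = 2). Their median depths were close, at 17608 and 26239 UMIs in marker-low phagocytes and 18684 and 23577 UMIs in macrophage-like cells. Intervals and limits of this kind cover counting error only.

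Among lymphocytes, NK-like cells were S-phase-positive in 7.5% (6 of 80) in replicate 1 and 14.7% (26 of 177) in replicate 3. T-like cells reached 2.33% (8 of 344, 1.01 to 4.53%) and 10.7% (80 of 748, 8.57 to 13.1%). Within the T-like cells of replicate 3 the share was 16.2% in CD8 T-like cells, 11.2% in regulatory T-like cells and 5.42% in the other T-like cells, while all of these lay between 2.10 and 2.78% in replicate 1. Conventional dendritic-cell (DC)-like cells, which present antigen to T cells, were positive in 9.68% (9 of 93) and 7.02% (8 of 114), the only class described so far with the higher share in replicate 1, and the intervals of both tumours overlapped.

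Positive cells were few or none in monocyte-like, neutrophil-like and plasmacytoid DC-like cells. Monocyte-like cells had 0 positive of 84 in replicate 1, which allows a share of up to 3.57%, and 1 of 281 (0.356%) in replicate 3. Neutrophil-like cells had 0 of 120, which allows up to 2.5%, and 0 of 9, and plasmacytoid DC-like cells 0 of 11 and 0 of 148, the last allowing up to 2.03%. Mature neutrophils do not divide, so their share serves as the background of free RNA in the droplets, but their median depth was 2600.5 and 2710 UMIs, below the thinning depth. Near-empty barcodes, with 10 to 100 UMIs each, carried the 35 genes at 965 and 1218 CPM in sum, more than the 149 and 378 CPM of neutrophil-like cells and the 252 and 327 CPM of monocyte-like cells. Free RNA thus held transcripts of the 35 genes at a level above that of the classes with the least of them. It was also above macrophage-like cells (537 and 1005 CPM) and conventional DC-like cells (746 and 829 CPM). T-like cells lay below it in replicate 1 (762 CPM) and above it in replicate 3 (1582 CPM). NK-like cells (1032 and 1667 CPM) and marker-low phagocytes (1253 and 1847 CPM) lay above it in both.

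**Figure D1:**
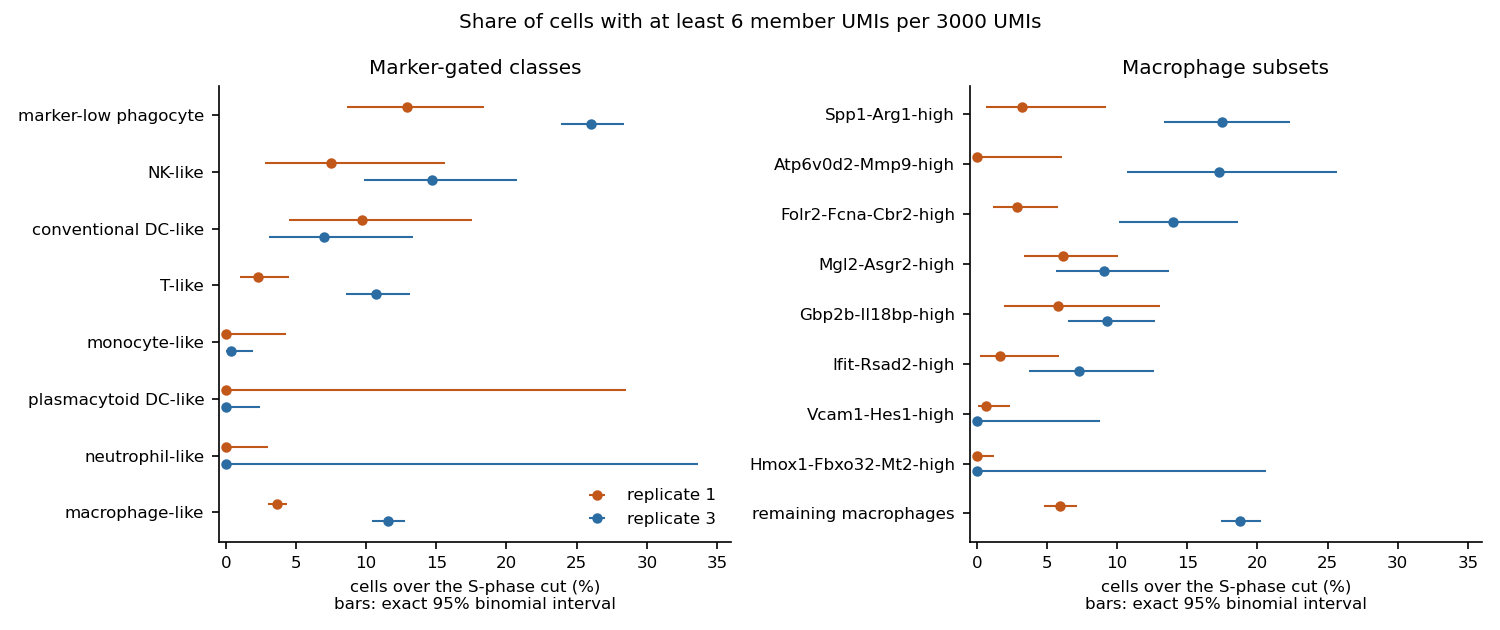
Share of cells (x axis, %) with at least 6 UMIs of the 35 genes among 3000 UMIs, for marker-gated classes (left panel, y axis) and macrophage subsets (right panel), with replicate 1 in orange, replicate 3 in blue and bars for exact 95% binomial intervals. Marker-low phagocytes sit at 12.9 and 26.1% above macrophage-like cells at 3.63 and 11.5%, and monocyte-like and neutrophil-like cells sit at or near 0.

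The S-phase-positive cells came mostly from phagocytes. Macrophage-like cells made up 63.8% of the positive cells of replicate 1 and 38.7% of those of replicate 3. They were 63.3% and 46.8% of all cells, so they were not over-represented among positive cells by more than a small margin in either tumour. Marker-low phagocytes made up 16.0% and 45.0%, although they were 4.64% and 24.0% of all cells.

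The levels of single genes in macrophage-like cells are given for the pair with the most UMIs in each functional group. UMIs from the 3' end are not compared between genes. In the helicase, Mcm3 and Mcm6, subunits of the MCM ring, stood at 27.1 and 49.0 CPM (Mcm3) and 16.6 and 49.0 CPM (Mcm6) in replicates 1 and 3. Of the licensing genes, the loader Cdt1 had 25.3 and 28.5 CPM and the origin recognition subunit Orc6 16.7 and 25.2 CPM. Cdt1 differed least between the tumours and Mcm6 was among those that differed most.

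Among the polymerase and clamp genes, Pcna, the sliding clamp, had 51.5 and 71.9 CPM, a value that is uncertain because a pseudogene copy, Pcna-ps2, is counted separately. Pclaf, a small protein bound to the clamp, had 30.1 and 79.5 CPM. In nucleotide supply, Dut, which destroys dUTP before it can be built into DNA, had 26.8 and 59.4 CPM, and Tk1, the thymidine kinase of the salvage pathway, 19.1 and 53.5 CPM. Pclaf, Dut and Tk1 were further apart between the tumours than Pcna. Of the chromatin genes, Slbp, which binds the stem-loop of histone mRNAs, had 53.2 and 61.7 CPM, and Uhrf1, which recruits the maintenance DNA methyltransferase, 6.57 and 17.1 CPM. The regulators E2f1 and Ccne1, a transcription factor and cyclin E1, stood at 21.0 and 33.4 CPM (E2f1) and 3.57 and 8.70 CPM (Ccne1).

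To ask how the 35 genes behave in dividing macrophages, macrophage-like cells were split by a separate list of 23 mitosis genes, such as Mki67, Top2a and Plk1, none of them among the 35. Cells with at least 4 UMIs of that list among 3000 were called mitotic-positive, 105 in replicate 1 and 301 in replicate 3, and the other 2761 and 2646 deep enough cells mitotic-negative. All 35 genes were higher in mitotic-positive cells by edgeR's quasi-likelihood test at an adjusted p under 0.05, where 14.3% of the 12707 genes tested were higher and 12% lower. Their median log2 fold change was 2.14, against −0.03 over all genes. Summed over the 35 genes, mitotic-positive cells held 2576 and 2890 CPM and mitotic-negative cells 414 and 691 CPM. Mitotic-positive cells were also deeper, at medians of 29342 and 36098 UMIs against 18621 and 22992.5 UMIs, and the part of depth in the difference was not tested beyond the thinning that defined the split.

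The steepest rises were in nucleotide supply, the clamp partner Pclaf and the checkpoint mediator claspin. Pclaf had 418 and 452 CPM in mitotic-positive cells, against 6.78 and 17.4 CPM in mitotic-negative cells, a log2 fold change of 5.24 ± 0.21 (SE, n = 2 tumours; edgeR adjusted p = 9.8e-19). Rrm2, the regulated subunit of ribonucleotide reductase, had 120 and 147 CPM against 2.35 and 7.34 CPM (4.85 ± 0.21, edgeR adjusted p = 6.6e-18). In both genes every mitotic-positive value lay above every mitotic-negative one. Clspn, which carries the replication checkpoint signal, had 57.7 and 54.2 CPM against 3.39 and 5.48 CPM (3.59 ± 0.18, edgeR adjusted p = 9.4e-17). Tk1 had 169 and 220 CPM against 10.1 and 25.7 CPM, and Tyms, thymidylate synthase, 142 and 165 CPM against 9.15 and 19.1 CPM, with log2 fold changes of 3.50 and 3.45. For these 3 genes too the groups did not overlap.

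The cyclins E followed. Ccne1 had 26.2 and 36 CPM in mitotic-positive cells against 2.19 and 4.15 CPM in mitotic-negative cells, a log2 fold change of 3.24, and Ccne2 rose by 3.15. Uhrf1, Rrm1 (the large subunit of ribonucleotide reductase) and Cdc45 rose by 3.04, 2.88 and 2.85. By group, the median log2 fold change was 3.17 for nucleotide supply, 3.15 for the regulators, 2.14 for chromatin, 2.09 for polymerases and clamp, 1.77 for the helicase and 1.60 for licensing. The smallest rises were those of Cdt1 at 0.67, Ung, the uracil-DNA glycosylase, at 0.85 and E2f1 at 0.90. Cdt1, whose protein is destroyed once S phase begins, had 35.8 and 46.6 CPM against 24.6 and 25.6 CPM, groups that lay close without overlapping.

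Of 46 further genes of replication and replication-coupled repair, 44 were higher and 0 lower in mitotic-positive cells (edgeR adjusted p under 0.05), with a median log2 fold change of 1.66. Among the largest were E2f7, a repressor of E2F targets (4.35 ± 0.37), and Rad51ap1 (4.03 ± 0.20). Several brakes of the cycle rose as well. Cdkn2c, which inhibits CDK4 and CDK6, had 108 and 127 CPM in mitotic-positive cells against 15 and 14.8 CPM in mitotic-negative cells (2.92 ± 0.15), and Cdkn2a, Cdkn2d and the pocket protein Rbl1 rose by 2.42, 2.2 and 1.87. The antiproliferative genes Btg1 and Btg2 fell by 0.80 and 0.63 on the log2 scale.

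**Figure D2:**
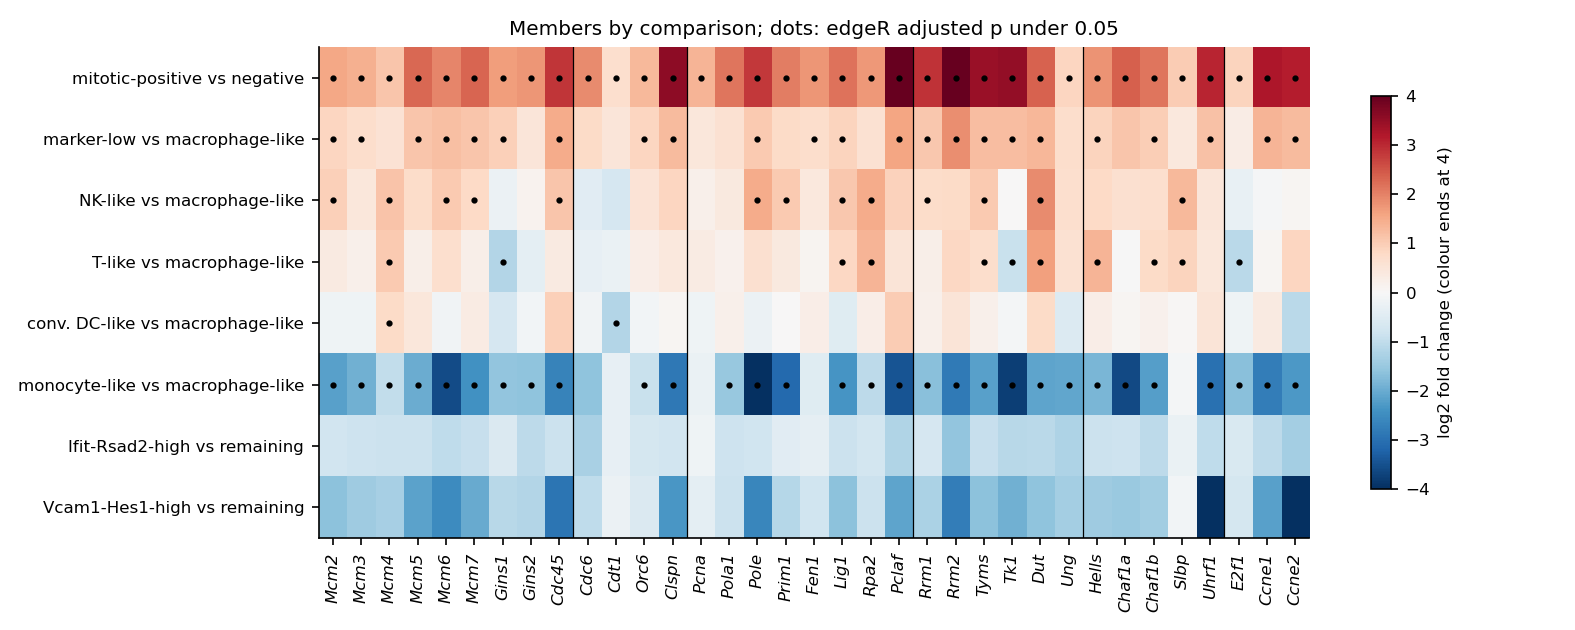
Log2 fold changes (colour, red higher and blue lower in the group named first, colour ending at 4) of the 35 genes (x axis, ordered by functional group with lines between groups) in 8 comparisons (y axis), with dots for an edgeR adjusted p under 0.05. The top line, mitotic-positive against mitotic-negative cells, has a dot for all 35 genes, and the monocyte-like line is blue with dots for 30.

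E2F factors bind a short GC-rich word, and the promoters of these genes are the classic place to look for it. RefSeq promoters of the GRCm38.p6 build, 250 bases before to 50 bases after each start, were available for 30 of the 35 genes, 35 promoters in all. The words searched were TTTCCCGC, TTTGGCGC, TTTCGCGC and TTTGCCGC on both strands, overlapping hits counted each. At least 1 word was present in 12 of the 35 promoters (34.3%), those of Mcm3, Mcm5, Mcm6, Mcm7, Lig1, Hells, Cdc6, Cdt1, Pola1, Uhrf1, Clspn and Pclaf, against 2.26% of all 32851 promoters of the same length. Among promoters of the 46 further replication genes the share was 36.6%, and among those of the mitosis list 4.76%. The CHR word TTTGAA, found at genes of G2 and mitosis, was present in 8.57% of the promoters of the 35 genes (those of Mcm2, Cdc45 and Fen1), in 19.5% of those of the further replication genes, in 76.2% of mitosis-list promoters and in 17.9% of all promoters. A match is a string of letters and not a measured binding site.

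**Figure D3:**
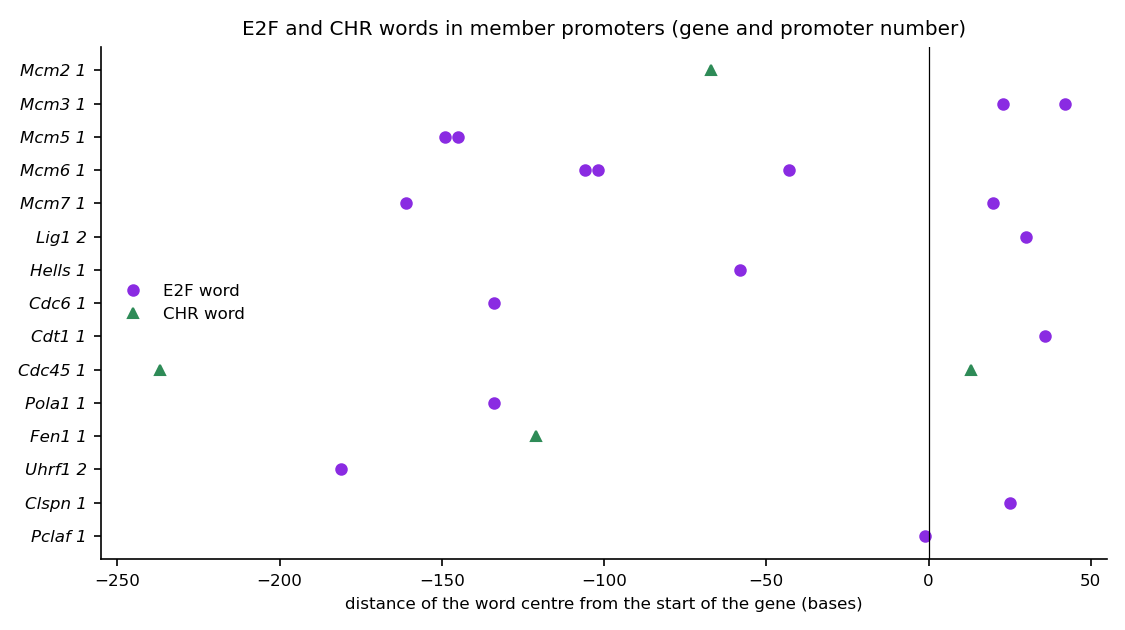
Distance of each E2F word (circles) and CHR word (triangles) from the start of the gene (x axis, bases), for the promoters of the 35 genes that hold at least 1 of them (y axis, gene and promoter number). E2F words lie in 12 promoters and CHR words in 3, with no promoter holding both.

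The promoters of the 4 genes with an E2F word and the largest rise in mitotic-positive cells are printed 5′ to 3′ on the strand of the gene, with the E2F words in capitals. They lie at chr9:65890073-65890372 (Pclaf, plus strand), chr4:126556730-126557029 (Clspn, plus strand), chr17:56304063-56304362 (Uhrf1, plus strand) and chr5:138171834-138172133 (Mcm7, minus strand).
Pclaf: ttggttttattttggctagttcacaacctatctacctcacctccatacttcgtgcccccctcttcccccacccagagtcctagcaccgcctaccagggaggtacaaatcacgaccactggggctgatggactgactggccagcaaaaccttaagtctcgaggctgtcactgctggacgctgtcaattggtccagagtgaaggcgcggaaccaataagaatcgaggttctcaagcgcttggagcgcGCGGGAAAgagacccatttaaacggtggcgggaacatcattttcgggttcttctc
Clspn: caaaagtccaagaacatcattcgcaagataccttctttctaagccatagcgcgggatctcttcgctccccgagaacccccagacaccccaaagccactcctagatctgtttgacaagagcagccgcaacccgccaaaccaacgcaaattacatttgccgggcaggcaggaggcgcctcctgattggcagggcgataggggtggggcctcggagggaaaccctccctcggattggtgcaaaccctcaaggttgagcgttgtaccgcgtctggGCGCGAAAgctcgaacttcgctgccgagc
Uhrf1: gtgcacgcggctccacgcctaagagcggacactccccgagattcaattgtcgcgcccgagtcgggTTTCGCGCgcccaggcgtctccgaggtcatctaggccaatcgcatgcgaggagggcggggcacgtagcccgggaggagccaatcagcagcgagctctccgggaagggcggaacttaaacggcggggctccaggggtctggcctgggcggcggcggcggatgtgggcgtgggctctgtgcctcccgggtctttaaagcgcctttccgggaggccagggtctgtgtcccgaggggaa
Mcm7: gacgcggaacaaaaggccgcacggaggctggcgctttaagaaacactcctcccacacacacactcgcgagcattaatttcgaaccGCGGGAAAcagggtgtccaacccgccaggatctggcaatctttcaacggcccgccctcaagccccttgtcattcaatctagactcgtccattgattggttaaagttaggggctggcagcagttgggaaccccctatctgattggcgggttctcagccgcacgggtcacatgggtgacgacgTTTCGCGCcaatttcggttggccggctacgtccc
The word of Pclaf, GCGGGAAA, begins 5 bases before the start of the gene and that of Clspn, GCGCGAAA, begins at base 22 of the transcript. The word of Uhrf1, TTTCGCGC, begins 185 bases before the start. Mcm7 holds one at 165 bases before the start and another at base 17 of the transcript. Mcm7 itself had 84.2 and 82.1 CPM in mitotic-positive cells, against 12.3 and 20.2 CPM in mitotic-negative cells.

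Phagocytes were then binned by their mitosis-list UMIs, macrophage-like and marker-low cells alike. The sum of the 35 genes was 368 and 594 CPM at 0 mitosis UMIs, 725 and 1363 CPM at 1 to 3, 3123 and 3680 CPM at 4 to 11, and 2334 and 2597 CPM at 12 or more. In both tumours 32 of the 35 genes had their highest level at 4 to 11 mitosis UMIs, and only Rrm1, Tk1 and Pclaf had it at 12 or more. Ung stood out among those that dropped in the last bin. It had 6.28, 16.1, 43.1 and 3.46 CPM from the lowest to the highest bin in replicate 1, and 11.8, 34.0, 39.0 and 4.60 CPM in replicate 3. The level at 12 or more over that at 4 to 11 was 0.08 and 0.12 for Ung, 0.10 and 0.29 for Ccne2, and 0.27 and 0.45 for Hells, a chromatin remodeller. For Pclaf it was 1.19 and 1.07, and for Tk1 1.08 and 1.04. These bins are a description with no test. How many of all genes peak in each bin was not counted. Depth differed too, at medians of 25554 and 35074 UMIs at 4 to 11 and 34927 and 43096.5 UMIs at 12 or more. Ung and Ccne2 had the lowest ratios in both tumours, and Rrm1, Tk1 and Pclaf the highest.

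**Figure D4:**
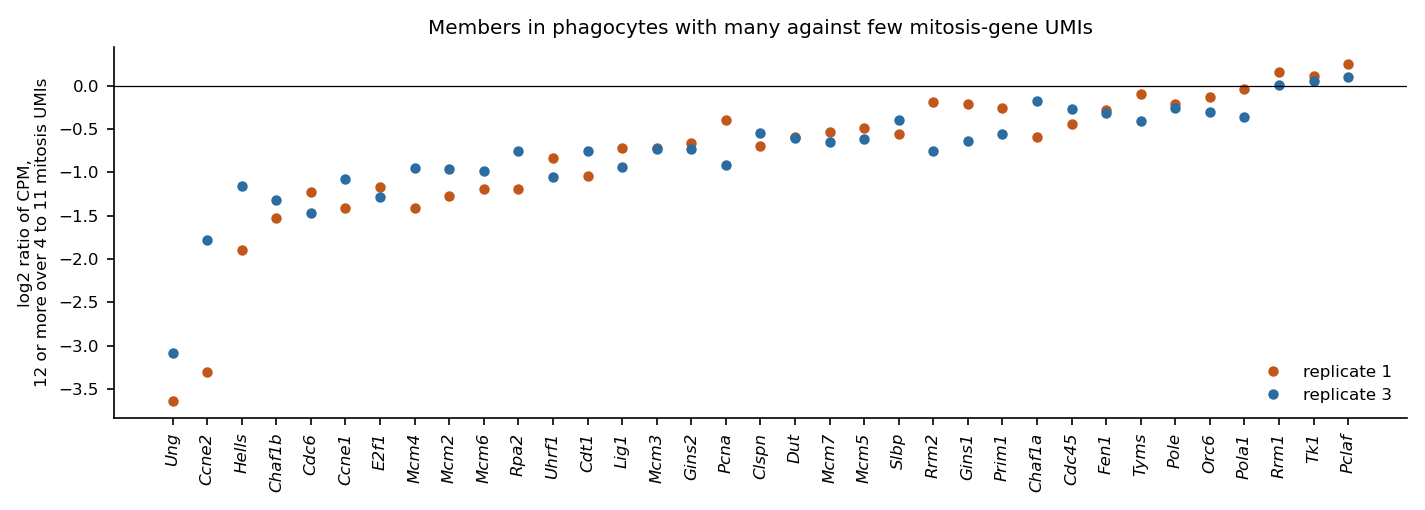
Log2 ratio of CPM in phagocytes with 12 or more mitosis-list UMIs over those with 4 to 11 (y axis) for each of the 35 genes (x axis, ordered by the mean), with replicate 1 in orange and replicate 3 in blue. Ung and Ccne2 lie far below 0 in both tumours, and Rrm1, Tk1 and Pclaf lie at or above 0.

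The gates for S phase and for mitosis overlapped in part. Of 3067 phagocytes in replicate 1, 59 passed both, 71 the S-phase gate alone and 71 the mitosis gate alone, and of 4463 in replicate 3 the numbers were 405, 330 and 292. Thus 45.4% and 55.1% of S-phase-positive phagocytes were also mitotic-positive. Cells passing both had medians of 37577 and 42763 UMIs, against 18348.5 and 22186.5 UMIs in cells passing neither.

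Marker-low phagocytes were set against macrophage-like cells in a comparison chosen after the data had been seen. Of the 35 genes 23 were higher and 0 lower (edgeR adjusted p under 0.05), where 7.66% of 11527 genes were higher and 7.27% lower. The median log2 fold change was 0.95, against −0.02 over all genes, and all 35 were above 0 in both tumours. Rrm2 had 52.1 and 77.5 CPM in marker-low phagocytes, against 9.01 and 27.2 CPM in macrophage-like cells (1.87 ± 0.37, edgeR adjusted p = 0.0037). Pclaf had 124 and 201 CPM against 30.1 and 79.5 CPM (1.57 ± 0.39), and Dut 87.1 and 134 CPM against 26.8 and 59.4 CPM (1.32 ± 0.26). In each of these genes the lower marker-low value lay above the higher macrophage-like value. Cdc45, Ccne1, Ccne2, Clspn, Tk1, Tyms and Mcm6 rose by 1.48, 1.35, 1.26, 1.25, 1.23, 1.22 and 1.21 on the log2 scale. The smallest adjusted p was that of Rrm1, at 0.00064 by edgeR, with a log2 fold change of 1.09 ± 0.16.

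By role, 7 of 9 helicase genes, 5 of 6 nucleotide genes, 4 of 8 polymerase and clamp genes, 3 of 5 chromatin genes, 2 of 4 licensing genes and 2 of 3 regulators were higher in marker-low phagocytes. E2f1, with 26.7 and 44.5 CPM against 21.0 and 33.4 CPM, was the regulator that did not pass. Of 45 further replication genes tested 23 were higher and 0 lower, with Rad51ap1 (1.54) and Brca1 (1.35) among the largest changes, and 21 of the 23 mitosis genes were higher. Other markers moved with the same split. Ctsk, a protease of osteoclasts, had 1874 and 540 CPM in marker-low phagocytes against 12.7 and 4.29 CPM in macrophage-like cells, Spp1 1189 and 1551 CPM against 304 and 544 CPM, and the 6 monocyte markers summed to 708 and 544 CPM against 214 and 411 CPM. Their part in the result was not tested. The count of 23 fell to 15 with DESeq2, to 4 after free RNA was subtracted and to 0 without the tumour as a block. All 35 genes stayed above 0, with a median log2 fold change of 0.95, both after the subtraction and without the block.

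T-like cells were next compared with macrophage-like cells. Of the 35 genes 8 were higher and 3 lower (edgeR adjusted p under 0.05), below the background of 25.3% of genes higher and 26.7% lower, and the median log2 fold change was 0.36, against −0.04 over all genes. Dut led with 101 and 184 CPM in T-like cells, against 26.8 and 59.4 CPM in macrophage-like cells (1.65 ± 0.26, edgeR adjusted p = 8.8e-05). Rpa2, a subunit of the single-strand binding protein, had 43.5 and 67.7 CPM against 15.1 and 25.7 CPM (1.36 ± 0.24). Hells had 26.3 and 35.2 CPM against 8.87 and 13.8 CPM (1.36 ± 0.25). The groups did not overlap in any of the 3. Mcm4, Slbp, Lig1 (the ligase of the lagging strand), Chaf1b (a histone chaperone) and Tyms rose by 1.04, 0.90, 0.83, 0.76 and 0.71.

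The other 3 genes that passed were lower in T-like cells, and each has a different role. E2f1 had 8.61 and 17.9 CPM in T-like cells against 21.0 and 33.4 CPM in macrophage-like cells (log2 fold change −1.08 ± 0.22, edgeR adjusted p = 0.00086). Gins1, of the helicase, had 1.81 and 2.88 CPM against 3.43 and 6.65 CPM (−1.18 ± 0.34), and Tk1 7.71 and 30.7 CPM against 19.1 and 53.5 CPM (−0.89 ± 0.33). For each the T-like value was the lower one in both tumours. None of the 4 licensing genes passed. These calls depended on which cells were kept: with a UMI minimum set from each library's deepest barcodes, which removes shallow T cells, 24 of the 35 were higher and 0 lower, out of 2425 genes higher and 3195 lower of 11630 tested. The 3 lower genes lost their calls there. The median depth of T-like cells was 4199 and 6316 UMIs, and the 8 macrophage markers summed to 462 and 597 CPM in them, against 47173 and 38188 CPM in macrophage-like cells.

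Around the 35 genes, T-like cells had other cyclins and brakes than macrophage-like cells. Cdkn1a, the p21 inhibitor, had 80.2 and 63.8 CPM in T-like cells against 378 and 219 CPM (log2 fold change −2.14), and Rbl2, the pocket protein p130 of resting cells, 121 and 70.9 CPM against 17.8 and 11.8 CPM (2.57). Cdkn2a, Btg1, Cdkn1b, Cdkn2d and Ccng2 were higher by 4.53, 1.54, 1.29, 0.95 and 0.92. Of the D cyclins, which drive G1, Ccnd1 was lower in T-like cells at −3.84, and Ccnd2 and Ccnd3 were higher at 3.28 and 1.58. Of 45 further replication genes 8 were higher and 2 lower, and the largest changes were those of E2f8 (−1.85), the nuclease Dna2 (−1.63) and Atad2 (1.43). Between CD8 T-like and regulatory T-like cells, a comparison chosen after the data had been seen, none of the 35 genes passed by edgeR or DESeq2, where 2.81% of 11591 genes were higher and 4.41% lower. Of the 35 genes 1 was higher at an unadjusted edgeR p under 0.05, as were 7.42% of all genes.

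NK-like cells had 13 of the 35 genes higher and 0 lower than macrophage-like cells (edgeR adjusted p under 0.05), where 19.5% of genes were higher and 24.0% lower. The median log2 fold change was 0.72, against −0.07 over all genes. Dut had 129 and 186 CPM in NK-like cells, against 26.8 and 59.4 CPM in macrophage-like cells (1.89 ± 0.27, edgeR adjusted p = 4.2e-05). Slbp had 109 and 179 CPM against 53.2 and 61.7 CPM (1.28 ± 0.17), and Rpa2 52.6 and 62.2 CPM against 15.1 and 25.7 CPM (1.48 ± 0.26). For none of the 3 did the classes overlap. Pole, the leading-strand polymerase, had 9.49 and 10.7 CPM against 2.56 and 4.39 CPM (1.5 ± 0.39).

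Of the 9 helicase genes 5 were higher in NK-like cells, Mcm4 (1.13), Cdc45 (1.11), Mcm6 (1.06), Mcm2 (0.95) and Mcm7 (0.79), together with Lig1 (1.08), Tyms (1.05) and Rrm1 (0.72). Prim1, the primase, also passed at 1.04, but its value was 6.90 CPM in NK-like cells against 7.48 CPM in macrophage-like cells of replicate 1, and 43.6 against 15.9 CPM in replicate 3, so the call rests on replicate 3. Neither a licensing gene nor a regulator passed. Of 45 further replication genes 17 were higher and 3 lower, with Dna2 at −3.27, E2f8 at −1.54 and Atad2 at 1.43. Cdkn1a stood at 12.1 and 34.2 CPM in NK-like cells against 378 and 219 CPM (−3.54), and Rbl2, Cdkn2d, Btg2 and Btg1 were higher by 1.85, 1.29, 1.06 and 0.72. Without the tumour as a block 5 of the 35 genes passed.

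In conventional DC-like cells 1 of the 35 genes was higher and 1 lower than in macrophage-like cells (edgeR adjusted p under 0.05), where 10.0% of genes were higher and 9.54% lower. Mcm4 had 32.4 and 33.9 CPM in conventional DC-like cells, against 15.1 and 28.2 CPM in macrophage-like cells (0.75 ± 0.23, edgeR adjusted p = 0.032). Cdt1 had 9.33 and 12.8 CPM against 25.3 and 28.5 CPM (−1.18 ± 0.28, edgeR adjusted p = 0.0065), with no overlap. The median log2 fold change of the 35 genes was 0.08, at 0.44 in replicate 1 and −0.36 in replicate 3. Of 45 further replication genes 6 were higher and 0 lower, led by Timeless (2.12), Dna2 (1.94) and E2f2 (1.56). Btg2 and Cdkn1b were higher by 1.34 and 1.06.

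Monocyte-like cells had lower levels of most of these genes. Of the 35, 30 were lower and 0 higher than in macrophage-like cells (edgeR adjusted p under 0.05), where 11.1% of genes were lower and 10.9% higher, and the median log2 fold change was −2.12, against −0.07 over all genes. All 9 helicase genes, all 6 nucleotide genes and all 3 regulators were lower. The counts were small, with 236 UMIs of the 35 genes in replicate 1 and 1219 in replicate 3, and in replicate 1 6 genes had no UMI and 13 had 1 to 3. Tk1 had 1.07 and 3.49 CPM in monocyte-like cells, against 19.1 and 53.5 CPM in macrophage-like cells (−3.77 ± 0.54, edgeR adjusted p = 0.00023), a ratio of 0.0653 in replicate 3 with an exact 95% counting interval of 0.0347 to 0.112. Pclaf had 1.07 and 6.98 CPM against 30.1 and 79.5 CPM (−3.46 ± 0.61), a ratio of 0.0879 in replicate 3 (0.0574 to 0.129). Mcm6 had 2.13 and 3.22 CPM against 16.6 and 49.0 CPM (−3.59 ± 0.56). For all 3 the highest monocyte-like value lay below the lowest macrophage-like value.

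Chaf1a, a subunit of the histone chaperone CAF-1, had 0 and 0.806 CPM in monocyte-like cells against 4.59 and 10.1 CPM, which is at least 1.43-fold lower in replicate 1 with the floor set at 3 UMIs per library, and a ratio of 0.0794 (0.0163 to 0.233) from 3 UMIs in replicate 3. Uhrf1 and Clspn had no UMI in replicate 1 and were at least 2.05-fold (Uhrf1) and 2.04-fold (Clspn) lower there. Pole had no UMI in either tumour, at least 5.45-fold lower in replicate 3, while in replicate 1 its macrophage-like level of 2.56 CPM was itself below the floor. Prim1, Rrm2 and Ccne1 fell by 3.10, 2.83 and 2.77 on the log2 scale. With Pole at its bound the median of the 35 stays at −2.12, since the bound lies below the median.

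The 5 genes that did not pass were Pcna, Cdt1, Fen1, Slbp and Cdc6. Slbp had 59.8 and 52.9 CPM in monocyte-like cells against 53.2 and 61.7 CPM in macrophage-like cells, Pcna 41.6 and 62.1 CPM against 51.5 and 71.9 CPM, and Cdt1 28.8 and 19.6 CPM against 25.3 and 28.5 CPM. These 3 values were close in both classes, with the order reversed between tumours for Slbp and Cdt1. Mcm4, which passed at −0.97, was at 16.0 CPM in monocyte-like cells against 15.1 CPM in macrophage-like cells of replicate 1 and at 10.2 against 28.2 CPM in replicate 3. Of 45 further replication genes 3 were higher and 21 lower, and of the 23 mitosis genes 21 were lower. Cdkn2c and Ccnd1 fell by 2.02 and 2.21 on the log2 scale, and Btg1 rose by 1.28. Without the tumour as a block 12 of the 35 genes passed.

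Phagocytes, macrophage-like and marker-low cells alike, were also split into subsets by short marker sets. Each subset was set against the remaining macrophages, which passed no set's threshold with the lead required over the next set. The remaining macrophages include marker-low phagocytes, the larger class with the highest S-phase-positive share. They had 5.90% and 18.8% S-phase-positive cells, above the 3.63% and 11.5% of macrophage-like cells. The Spp1-Arg1-high subset (3.26% and 17.5%), the Folr2-Fcna-Cbr2-high subset of resident-type macrophages (2.86% and 14%), the Gbp2b-Il18bp-high subset of interferon-gamma type (5.81% and 9.26%), the Mgl2-Asgr2-high subset (6.14% and 9.09%) and the Ifit-Rsad2-high interferon subset (1.65% and 7.28%) held positive cells in both tumours. The Vcam1-Hes1-high subset had 0.662% and 0%, the last from 0 of 40 cells, which allows up to 7.5%. The Hmox1-Fbxo32-Mt2-high subset had 0 of 290 cells in replicate 1, which allows up to 1.03%, and 0 of 16 in replicate 3. The Atp6v0d2-Mmp9-high subset, with an osteoclast-like gene set, had 0% (0 of 59 cells, which allows up to 5.08%) and 17.3%. The share was also higher in replicate 3 in the remaining macrophages and in every subset with positive cells in both tumours. In replicate 1 824 phagocytes and in replicate 3 878 lay close to the subset thresholds.

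In 6 of the 7 subsets that could be fitted none of the 35 genes passed by edgeR's adjusted p, while most pointed down. This depended on the filter on low counts: without it some of the 35 passed in each of these subsets, as given below. In Vcam1-Hes1-high cells the median log2 fold change was −1.42, against −0.00 over all genes. There 31 of 35 genes were lower at an unadjusted edgeR p under 0.05, as were 10.1% of all 11287 genes. After adjustment 0.0177% of all genes were higher and 0.0% lower, and DESeq2 called 11 of the 35 by its own adjusted p. Mcm6 had 5.23 and 6.04 CPM in this subset and the smallest adjusted p among the 35, 0.056 by edgeR. In Ifit-Rsad2-high cells the median was −0.85 with 24 genes lower at an unadjusted edgeR p under 0.05, as were 6.1% of all genes, and after adjustment 3.99% of all genes were higher and 0.257% lower. In Gbp2b-Il18bp-high cells the median was −0.75 with 23 genes lower at an unadjusted p under 0.05, as were 4.94% of all genes, and after adjustment 1.34% of all genes were higher and 0.0709% lower. Without the tumour as a block the genes lower at an unadjusted p numbered 24 in Vcam1-Hes1-high, 0 in Ifit-Rsad2-high and 1 in Gbp2b-Il18bp-high cells. DESeq2 called 0 of the 35 in both of these.

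In Folr2-Fcna-Cbr2-high cells the median log2 fold change of the 35 genes was −0.47 with 13 lower at an unadjusted edgeR p under 0.05, as were 10.8% of all genes, and after adjustment 2.89% of all genes were higher and 2.8% lower. With a mitochondrial limit of 5% the median was −0.09 with 0 genes lower at an unadjusted p, and with subsets gated among macrophage-like cells only it was −0.30 with 5. Of the 23 mitosis genes 18 were lower there. In Mgl2-Asgr2-high cells the median was −0.25 with 3 genes lower at an unadjusted p under 0.05, as were 8.27% of all genes, and after adjustment 2.44% of all genes were higher and 1.52% lower. Cdkn2c and Cdkn2d, inhibitors of CDK4 and CDK6, fell there by 1.05 and 0.71 on the log2 scale. In Spp1-Arg1-high cells the median was −0.00 and none of the 35 had an unadjusted p under 0.05, where 7.89% of all genes were higher and 8.43% lower at that p, and 1.11% and 1.44% after adjustment. That value depended on the gate: the median was −0.88 with 19 genes lower at an unadjusted p under the stricter gate, −0.29 with a mitochondrial limit of 5%, and 0.17 with subsets gated among macrophage-like cells only. DESeq2 called 0 of the 35 in each of these 3 subsets.

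The Atp6v0d2-Mmp9-high subset had 1 gene higher and 4 lower than the remaining macrophages (edgeR adjusted p under 0.05), below the background of 18% of genes higher and 17.8% lower. Cdt1 had 41.1 and 52.6 CPM in the subset, against 26.2 and 36.9 CPM in the remaining macrophages (0.64 ± 0.17, edgeR adjusted p = 0.0087). Mcm3 had 7.75 and 38.9 CPM against 33.2 and 64.1 CPM (−0.83 ± 0.27), Slbp 32.5 and 47.8 CPM against 55.8 and 77.8 CPM (−0.63 ± 0.18), and Cdc6 and Pcna fell by 1.11 and 0.60 on the log2 scale. Cdt1 was the higher in the subset within each tumour and the other 4 the lower. Of the CDK inhibitors, pocket proteins and related brakes 7 also fell, led by Btg2 (−2.48), Cdkn1a (−1.68) and Ccng2 (−1.57). With the subset gated among macrophage-like cells only, none of the 35 genes passed and the Cdt1 value was −0.042. With a mitochondrial limit of 5%, 1 was higher and 0 lower, and the median log2 fold change of the 35 was 0.13, against −0.40 with the limit of 10%.

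Between the tumours, all 35 genes stood lower in replicate 1 than in replicate 3 in macrophage-like cells, each with an exact 95% counting interval below 1. The ratio of replicate 1 over replicate 3 ran from 0.331 for Rrm2 to 0.886 for Cdt1, with a median of 0.517, and the sum of the 35 genes had a ratio of 0.535 (0.528 to 0.542). These are single samples, so the intervals compare 2 libraries and give no test of a tumour effect. The share of all genes with such an interval was not computed for any class. Counts of intervals below 1 therefore cannot be read as particular to the 35 genes. Behind Rrm2 came Mcm6 at 0.339, Tk1 at 0.356 and Pclaf at 0.379, and before Cdt1 came Slbp at 0.862 and Pcna at 0.716. Cdt1 also had the smallest rise in mitotic-positive cells, and Cdt1, Slbp and Pcna were among the 5 genes that did not pass in monocyte-like cells.

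Most other classes also had lower levels in replicate 1, but not all. In T-like cells all 35 ratios were below 1, 32 of them with the interval, and the median was 0.476. In NK-like cells all 35 were below 1, 20 with the interval, with a median of 0.609, and in marker-low phagocytes 34, of which 29 with the interval, with a median of 0.682. Monocyte-like cells had 25 below 1 and 4 with the interval. Summed over the genes the ratio was 1.09 in fibroblast-like cells (1.02 to 1.17), 1.20 in plasmacytoid DC-like cells (0.916 to 1.55), 1.10 in Vcam1-Hes1-high cells (0.955 to 1.27) and 0.986 in cDC2-like cells (0.916 to 1.06). The sum was thus higher in replicate 1 in fibroblast-like cells, and the other 3 intervals included 1. It was 0.891 in mitotic-positive and 0.599 in mitotic-negative macrophages, 0.899 in conventional DC-like cells and 0.792 in near-empty barcodes. The ratio lay nearer 1 in mitotic-positive than in mitotic-negative macrophages, a difference that was not tested over samples. Sequencing depth, free RNA and the number of cycling cells differed along with the tumour, and their parts cannot be told apart with 1 library each.

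**Figure D5:**
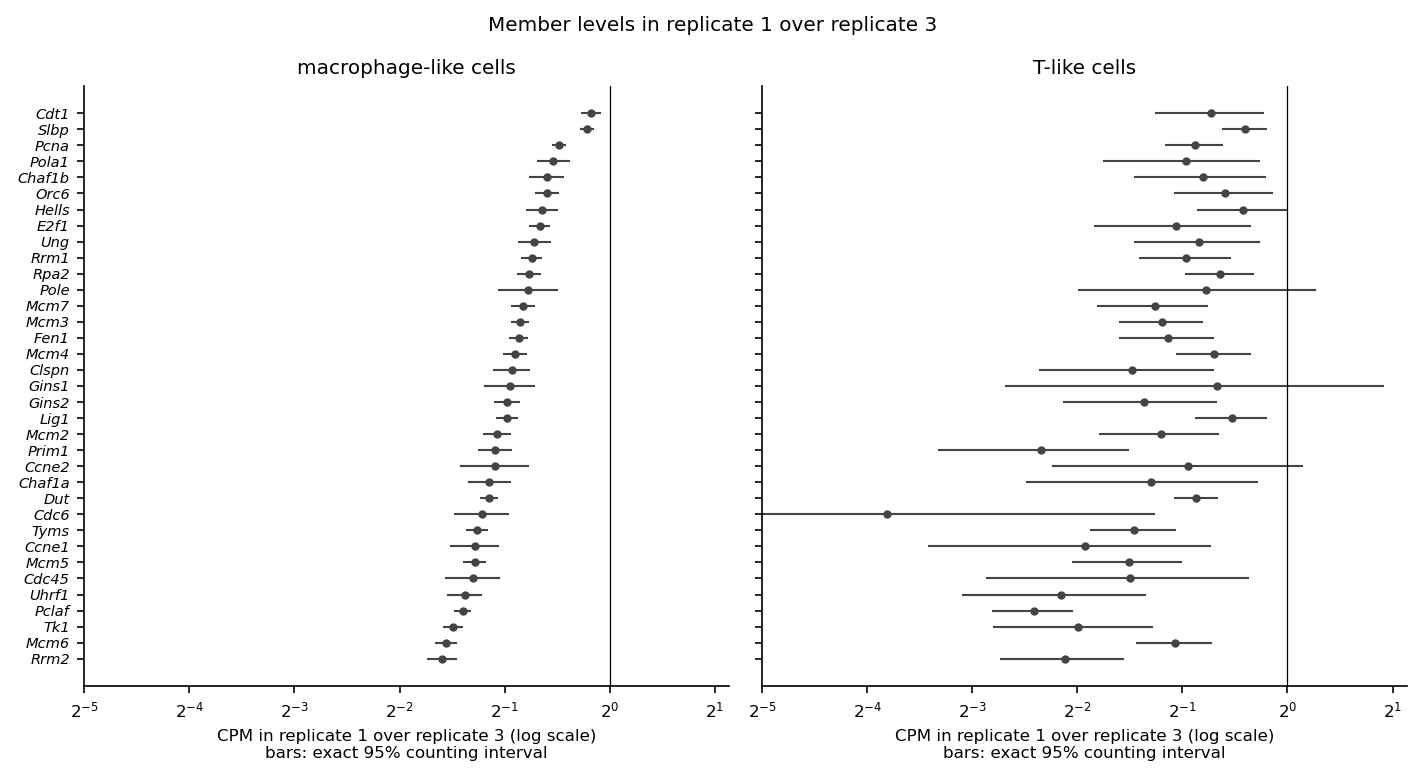
Ratio of CPM in replicate 1 over replicate 3 (x axis, log scale) for the 35 genes (y axis) in macrophage-like cells (left) and T-like cells (right), with exact 95% counting intervals, the interval of Cdc6 in T-like cells running past the axis. All points lie left of 1, from 0.331 to 0.886 in macrophage-like cells.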

How the data were processed

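UMIs were measured per gene and cell in 2 tumours of 1 group. The deposited values are raw whole-number counts, made with Cell Ranger 4.0 on mm10 per the submitters' processing notes. Not given in the sources used here are the annotation release, the handling of multi-mapped reads and any filter on cells. The matrices list 6794880 barcodes each, so cells were called here: at least 1000 UMIs and 500 genes and at most 10% mitochondrial UMIs.

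Scrublet (scanpy 1.11.5) marked 0 of 4818 and 0 of 6734 barcodes at its own threshold and was taken not to have worked, so 186 and 363 barcodes were removed by rank of score, 0.8% for each 1000 cells. Classes were gated on fixed marker lists in UMIs per 10000, the macrophage-like class at a marker sum of at least 100 and marker-low phagocytes below it with Csf1r at 1 or more. Subsets needed a marker z score of 1.5 with a lead of 0.5, and at least 20 cells per tumour to be fitted. UMIs were summed per tumour and class and tested with edgeR 4.0.16 (R 4.3.3, limma 3.58.1; TMM, filterByExpr, quasi-likelihood F-test, Benjamini-Hochberg over all genes tested, threshold 0.05), with all classes in 1 fit and the tumour as a block. Classes pair because they come from the same tumour; their deviations correlated at 0.0622 to 0.671 over 28 pairs of 8 classes. Gate markers, YFP and RFP were not tested, nor the mitosis list where it made the split. All 35 genes passed the filter on low counts in every comparison. Simulated counts were drawn from the means and spread of the fits for 4 of the comparisons. Of genes changed by 1 log2 unit 64.6 to 76.3% were called, and of those changed by 2 87.5 to 96.0%. False calls were 0.0363 to 0.0822% of unchanged genes. Since the spread came from the same fits, the simulation cannot check it.

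The 35 genes and all lists were chosen with earlier results of these data known. Text values were given for the pair of genes with the highest macrophage-like CPM per role, and per comparison for up to 10 genes with the largest change among those called and of the same sign in both tumours. For further replication genes the 3 largest changes were named, except 1 gene that is not reported here, for the brakes every called gene, and for promoters up to 4 with an E2F word. Genes outside these rules were named after their values were seen. Alternatives covered cell filters, gates, normalisation, DESeq2 1.42.0, the low-count filter, free RNA, the block and each replicate. Python 3.11.15, pandas 2.3.3, matplotlib 3.10.9, scipy 1.17.1 and numpy 2.4.6 were used.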

Additional observations from a re-analysis of the deposited data

How the results depend on the processing

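Of 119 results on single genes that passed, 117 passed in the same direction with RLE size factors, 115 with a strict UMI minimum, 116 without doublet removal, 104 with DESeq2, 104 with a stricter gate and 88 after free RNA was subtracted. The cause of these losses was not tested. Counts of the 35 genes that passed moved by over 1.5 times as follows. With the strict UMI minimum they were 24 in T-like, 4 in conventional DC-like and 4 in Vcam1-Hes1-high cells. Of all genes tested, 20.9% were higher and 27.5% lower in T-like, 10.6 and 12.5% in conventional DC-like and 0.142 and 0.205% in Vcam1-Hes1-high cells. Without doublet removal they were 4 in conventional DC-like, 3 in Atp6v0d2-Mmp9-high and 1 in Vcam1-Hes1-high cells. In the same order, 10.0, 18.4 and 0.141% of all genes were higher and 9.52, 17.1 and 0.141% lower. The stricter gate gave 5 in conventional DC-like, 2 in Folr2-Fcna-Cbr2-high, 5 in Ifit-Rsad2-high and 2 in Spp1-Arg1-high cells, and turned Ung in mitotic-positive cells to −0.42. DESeq2 gave 1 in conventional DC-like, 15 in marker-low and 11 in Vcam1-Hes1-high cells, where 11.4, 7.86 and 0.975% of all genes were higher and 10.1, 7.12 and 2.42% lower. A mitochondrial limit of 5% gave 1 in Atp6v0d2-Mmp9-high cells, where 10.8% of all genes were higher and 11.9% lower. Subtracting free RNA gave 1 in conventional DC-like, 4 in marker-low and 3 in Atp6v0d2-Mmp9-high cells, where 6.23, 1.98 and 15.1% of all genes were higher and 8.09, 3.54 and 17.6% lower. With no filter on low counts, 20 passed in Folr2-Fcna-Cbr2-high, 9 in Mgl2-Asgr2-high, 11 in Atp6v0d2-Mmp9-high, 29 in Vcam1-Hes1-high, 23 in Gbp2b-Il18bp-high, 26 in Ifit-Rsad2-high and 2 in Spp1-Arg1-high cells. Of all genes tested at that setting, in the same order, 2.62, 2.38, 10.0, 1.51, 1.87, 3.04 and 1.78% were higher. The shares lower were 4.02, 3.02, 11.4, 2.73, 1.42, 1.55 and 2.69%. With subsets gated among macrophage-like cells only, an alternative chosen after seeing the data, 0 passed in Atp6v0d2-Mmp9-high cells, where Cdt1 turned to −0.042, and 11 in Ifit-Rsad2-high cells. In the latter 4.79% of all genes were higher and 0.699% lower.

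With no replicate block, where the tumour pairing is ignored, 5 genes passed in T-like, 5 in NK-like, 0 in conventional DC-like, 12 in monocyte-like, 0 in marker-low and 0 in Atp6v0d2-Mmp9-high cells, and 47 of the 119 single results passed. In mitotic-positive cells 25 of the 35 genes passed without the block, and 33 to 35 under the other alternatives that use both tumours.

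Leaving out each replicate, the median log2 fold change of the 35 genes ran from −0.36 to 0.44 in conventional DC-like and from −0.68 to 0.13 in Mgl2-Asgr2-high cells. Prim1 in NK-like cells ran from −0.11 to 1.45 and Mcm4 in monocyte-like cells from −1.45 to 0.080. For CD8 T-like against regulatory T-like cells the median was 0.20 in the edgeR fit of both tumours with TMM, against −0.03 over all genes. It was −0.11 without replicate 1 and −0.10 without replicate 3, but values of a single replicate were computed without TMM. The medians over all genes were −0.12 and −0.23 there, so the signs with and without TMM cannot be compared directly. The medians of the other comparisons kept their sign when a replicate was left out. The mean S-phase-positive share, in percent, moved to 1.48 in monocyte-like, 17.9 in T-like, 26.0 in NK-like and 14.3 in conventional DC-like cells with a lower threshold of 4 UMIs, to 6.30 in conventional DC-like cells with one of 8 UMIs, to 17.6 in T-like cells with the strict UMI minimum and to 11.7 in conventional DC-like cells with the mitochondrial limit of 5%.

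The Hmox1-Fbxo32-Mt2-high comparison was not run, having 17 cells in replicate 3, and Vcam1-Hes1-high cells gave no value under the stricter gate. Depth limits the values of groups with few UMIs of the 35 genes in a tumour, such as monocyte-like cells with 236 in replicate 1, CD8 T-like cells with 227 in replicate 1 and Vcam1-Hes1-high cells with 219 in replicate 3.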

Other observations

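The light-printed codes offer a position for each cell, though the labels do not say which code marks which region. Phagocytes were cut into 3 groups of nearly equal size within each tumour, by the share of ZC1 in the summed UMIs of the codes ZC1 and ZC5. UMIs of other codes did not enter this share. Cells with fewer than 10 UMIs of ZC1 and ZC5 together were left out. S-phase-positive cells made up 5.77%, 3.33% and 3.62% of the high, middle and low group in replicate 1, and 15.3%, 17.1% and 17.1% in replicate 3. The order differed between the tumours. T-like and NK-like cells together had 2.84%, 4.96% and 2.11% in replicate 1 and 10.6%, 14.1% and 9.90% in replicate 3, the middle group being highest in both, with overlapping intervals.

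Among the barcodes removed as likely doublets, 6.49% (12 of 185) in replicate 1 and 18.4% (66 of 358) in replicate 3 were S-phase-positive, against 3.95% (163 of 4125) and 14.2% (878 of 6189) of the cells kept. Near the threshold of 6 UMIs, 48 and 152 cells lay 1 UMI below it and 22 and 108 cells at it. Among all cells kept, of any class, 119 and 363 had a macrophage marker sum of 80 to 120, around the line that separates macrophage-like cells from marker-low phagocytes.

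Conventional DC-like cells had 14% mitotic-positive cells in replicate 1, against 12.4% in marker-low phagocytes, and 12.3% against 26.1% in replicate 3. T-like cells had 0.872% and 4.01% mitotic-positive cells beside 2.33% and 10.7% S-phase-positive cells.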
